A study of Mus musculus with 17 samples.

Results

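Tumour necrosis factor, encoded by Tnf, and 9 genes of its signalling and feedback were examined in mouse macrophages, as 10 of the 24453 gene models in the deposited expression table. The members were chosen by gene symbol: the ligands Tnf and Tnfsf9, the receptors Tnfrsf1a and Tnfrsf1b, the receptor-proximal adaptor and ubiquitin ligase genes Traf1 and Birc3, the NF-κB feedback genes Tnfaip3, Tnip1 and Tnip3, and Tnfaip2, named for its induction by TNF. All 10 symbols were found, each in 1 model, and all 10 reached the mean of 1 RPKM (reads normalised to exon length and to the mapped reads of the library) that was needed for testing.

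The series asked how members of the transcription factor family AP-1 act in macrophages, and lists 17 samples, of which 13 polyA RNA-seq libraries have values. Immortalised bone marrow-derived macrophages (iBMDMs) carried Myc and BRAF(V600E) on the C57Bl/6EiJ background, were labelled male and received vehicle (PBS). They were labelled scramble control (Scramble, zsGreen in the titles), Atf3KO, JunKO or JunDKO, with 2 libraries in each of the 4 groups. Per the study's methods, a virus carrying a pair of guides was put into a Cas9-expressing line and infected cells were sorted by a fluorescent marker on the virus, tagBFP2. The Scramble titles name zsGreen instead, and whether control and knockout lines carried the same marker is not given in the sources used here. Whether a knockout line is a clone or a mixture of edited cells is not given in the sources used here. Thioglycollate-elicited macrophages (TGEMs) were primary peritoneal cells of male mice, 8 weeks old per the methods, of the strains C57Bl/6EiJ and Balb/cJ as the labels name them. Some were exposed for 1 h to Kdo2 lipid A (KLA), a bacterial lipid that activates TLR4, and the others to vehicle. There was 1 library of each treatment for C57Bl/6EiJ, and for Balb/cJ 1 with vehicle and 2 with KLA. No label says that libraries of a group came from separate cultures or mice, so p-values measure the spread between these libraries, which may be technical.

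TNF is secreted by macrophages within minutes to hours of contact with bacterial lipid, and binds a pair of receptors, TNFR1 (Tnfrsf1a) and TNFR2 (Tnfrsf1b). TNFR1 gathers TRADD, RIPK1, TRAF2 and the ubiquitin ligases cIAP1 and cIAP2 (Birc3), whose chains recruit the kinases that free NF-κB, and NF-κB in turn transcribes Tnf and genes that limit the pathway. Among these, A20 (Tnfaip3) edits ubiquitin chains, and ABIN1 (Tnip1) binds A20 or ubiquitin and restrains NF-κB. ABIN3 (Tnip3) is a related ABIN protein, and its action in mouse cells was not examined here.

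Depth spanned 1553296 to 18444429 reads per library. In iBMDMs Tnf rested on 33 to 473 reads and Traf1 on 0 to 25, where the Traf1 counts did not follow depth. The markers fixed for macrophages, 8 of 8, were present in all groups. In the iBMDMs the other cell types' markers summed to at most 51.7 RPKM, reached by the neutrophil list, of which S100a9, Ly6g, Cxcr2, Ngp and Camp were at 0. The targeted genes kept exonic reads in the libraries labelled as their knockout. Atf3 measured 154 and 169 RPKM in Atf3KO and 80.7 and 77.4 in Scramble, Jun measured 26.2 and 20.5 in JunKO and 17.6 and 18.5 in Scramble, and Jund measured 6.94 and 6.07 in JunDKO and 9.19 and 8.33 in Scramble. Cells can transcribe an edited locus, so these levels do not check the edits. In Atf3KO, Jund measured 22.6 and 83.0 RPKM, libraries far apart, a change of 2.19 ± 0.49 from Scramble (SE; limma-trend adjusted p = 0.0100). Jun measured 17.9 and 46.2 RPKM there (0.65 ± 0.38, limma-trend adjusted p = 0.192). The part of these levels in the members' values was not tested. The study also used western blots to check the lines, which were not analysed here, and group names stand below for the libraries so labelled. The Atf3KO libraries held reads of 10425 and 10631 models, against 11884 to 12533 in the other 6 iBMDM libraries, and Atf3KO replicate 2 carries a later date in its title than the other 7.

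The promoters of 4 members are shown because the values below contrast them: Tnf and Tnfaip2 both rose with KLA but only the second holds a match to the NF-κB binding sequence, and the related ABIN genes Tnip1 and Tnip3 both hold one but only Tnip3 was called in a comparison. Each run is the 250 bases before the RefSeq start of the deposited model on GRCm38.p6, read 5′ to 3′ on the gene's strand. Capitals mark matches to the kappaB consensus, searched on both strands, where overlapping matches form 1 stretch. The windows are chr17:35202008-35202257 (minus strand) for Tnf, chr12:111442411-111442660 (plus strand) for Tnfaip2, chr11:54962941-54963190 (minus strand) for Tnip1 and chr6:65590148-65590397 (plus strand) for Tnip3.
Tnf: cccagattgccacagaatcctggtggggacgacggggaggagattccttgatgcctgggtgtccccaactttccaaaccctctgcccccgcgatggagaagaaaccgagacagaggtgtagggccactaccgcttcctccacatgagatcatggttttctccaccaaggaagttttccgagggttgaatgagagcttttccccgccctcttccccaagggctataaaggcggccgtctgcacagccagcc
Tnfaip2: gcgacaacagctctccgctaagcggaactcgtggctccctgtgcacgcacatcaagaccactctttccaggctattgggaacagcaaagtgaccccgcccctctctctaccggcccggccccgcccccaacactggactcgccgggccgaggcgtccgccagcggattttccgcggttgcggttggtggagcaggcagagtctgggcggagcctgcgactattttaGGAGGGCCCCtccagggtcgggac
Tnip1: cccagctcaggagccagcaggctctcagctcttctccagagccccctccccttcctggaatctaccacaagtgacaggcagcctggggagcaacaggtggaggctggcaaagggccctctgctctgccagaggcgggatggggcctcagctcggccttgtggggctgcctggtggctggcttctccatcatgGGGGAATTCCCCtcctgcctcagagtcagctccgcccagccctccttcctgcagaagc
Tnip3: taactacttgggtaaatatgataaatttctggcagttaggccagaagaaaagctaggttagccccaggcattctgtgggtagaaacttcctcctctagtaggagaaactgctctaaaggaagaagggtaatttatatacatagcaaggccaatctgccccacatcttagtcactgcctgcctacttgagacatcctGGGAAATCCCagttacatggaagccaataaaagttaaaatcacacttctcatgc
Counted back from the start, the Tnip1 window held 3 overlapping matches between bases -58 and -47, the Tnip3 window 1 from -54 to -45 and the Tnfaip2 window 1 from -24 to -15. The Tnf window held none. Of the 9 members with a promoter in the RefSeq table, 3 held a kappaB match, against 7.25% of all 32851 promoters of the same length. None of the 9 held the AP-1 sequence TGACTCA (also read as TGAGTCA) or the CRE TGACGTCA, which were in 4.46% and 1.55% of all promoters. No match says only that these letters are not in this window.

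**Figure D1:**
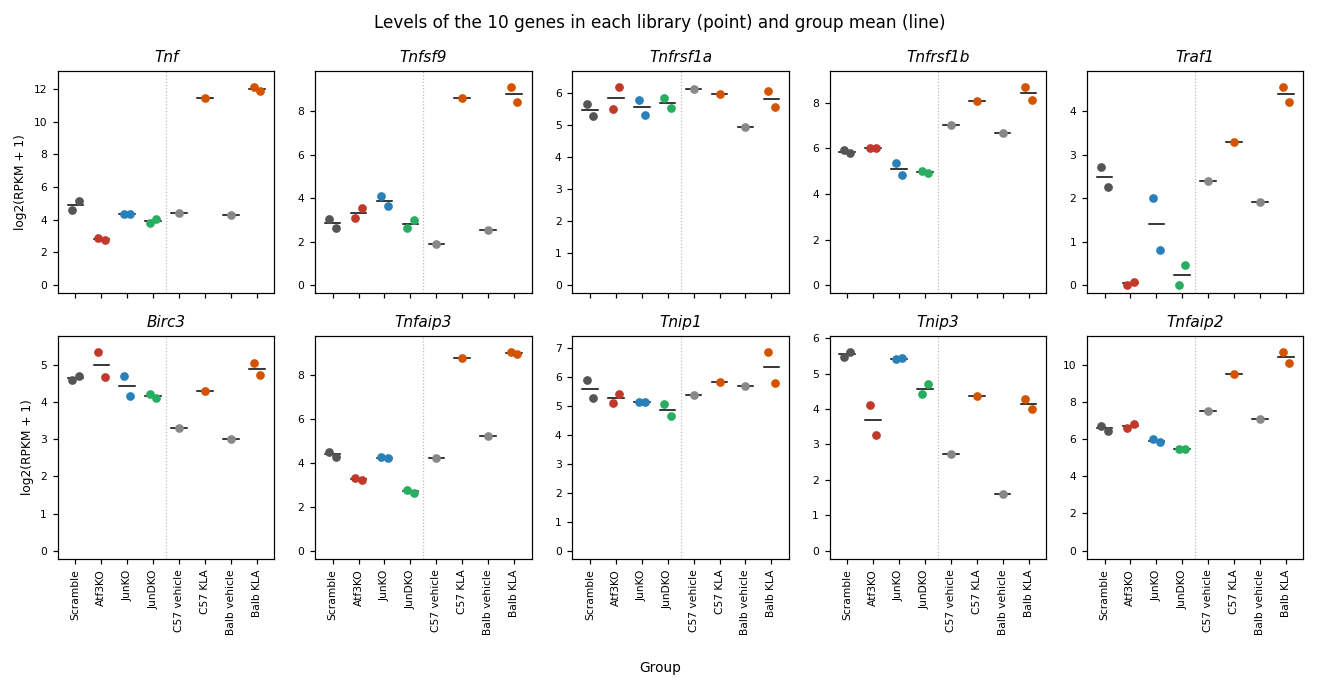
Levels of the 10 genes as log2(RPKM + 1), with 1 point per library and a line at the mean of the log2 values of each group; iBMDMs stand left of the dotted line and TGEMs right of it. Tnf lay between 5.79 and 33.7 RPKM in every resting library and between 2765 and 4480 RPKM in the KLA libraries, while Tnfrsf1a stayed between 29.7 and 72.3 RPKM throughout.

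Tnf (chromosome 17, 35199367 to 35202007, minus strand, 4 exons) was the member with the widest range. It measured 23.6 and 33.7 RPKM in Scramble, 19.6 and 19.1 in JunKO, 12.9 and 15.6 in JunDKO and 6.49 and 5.79 in Atf3KO. Resting TGEMs lay within the iBMDM range, at 20.6 RPKM in C57Bl/6EiJ and 18.1 in Balb/cJ. In the KLA libraries Tnf stood at 2765 RPKM in C57Bl/6EiJ and at 4480 and 3718 in Balb/cJ. It then ranked 13th, 7th and 9th among all models of its library and took 0.455%, 0.738% and 0.612% of all reads, from ranks of 2674 and 2760 in the vehicle libraries. In order of mean level the iBMDM groups ran from Scramble through JunKO and JunDKO to Atf3KO, and the libraries of neighbouring groups did not overlap at any step, while the vehicle TGEM libraries lay on either side of both JunKO libraries. Both JunKO libraries also lay below both Scramble libraries for 18.1% of all tested genes, and this share was not counted for the later steps. Of the steps, the last one passed the adjusted p limit and none was called. JunKO against Scramble differed by -0.52 ± 0.22 on the log2 scale (SE; limma-trend adjusted p = 0.617), JunDKO against JunKO by -0.42 ± 0.22 (limma-trend adjusted p = 0.275), and Atf3KO against JunDKO by -1.09 ± 0.22 (limma-trend adjusted p = 0.00624). The last step is over 2-fold, but the Tnf mean was under 16 RPKM in both groups, and without JunDKO replicate 2 it was -0.96 (limma-trend adjusted p = 0.0601).

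The comparison of Atf3KO with Scramble asked which mRNAs differ where ATF3, an AP-1 member known as a repressor of inflammatory genes, was targeted. Tnf, Tnip3 and Tnfaip3 fell, and no member rose. A gene was called at a limma-trend adjusted p under 0.05, a fitted change of at least 2-fold and 16 RPKM or more as the mean of 1 of the groups. By this call 3 of 10 members were lower, where 4.69% of all 10691 tested genes were. Tnf fell by 2.03 ± 0.22 on the log2(RPKM + 1) scale (SE; 2 libraries in each group; limma-trend adjusted p = 0.000672), a mean of 6.14 ± 0.496 RPKM (SD, n = 2) against 28.6 ± 7.15. Both Atf3KO libraries lay below both Scramble libraries for Tnf, as for 4 of 10 members and 33.4% of all tested genes. They lay above both for 2 of 10 members and 37.4% of all tested genes, so a lack of overlap was common here. The Tnf call held in 20 of 20 alternative settings. With a limit of 4-fold, which the study's methods also state, Tnf was the one member called, where 1.01% of all tested genes were called lower. Of the macrophage markers 4 of 8 were above both Scramble libraries in Atf3KO and none below, where 37.4% and 33.4% of all tested genes were. Summed levels of the 8 markers were 23623 to 33015 RPKM against 22314 to 23851. Mertk measured 28.8 and 24.6 RPKM against 7.04 and 8.27. Of markers of other cells, Csf3r was at 10.6 and 11.6 RPKM against 2.53 and 3.31 in Scramble, with neutrophil sums of 33.3 to 51.7 against 36.5 to 37.3, and Ccr3 was at 0 in both libraries against 1.58 and 2.32. The part of these markers in the members' values was not tested.

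Tnip3 (chromosome 6, 65590398 to 65634040, plus strand, 8 exons) encodes ABIN3. It measured 43.7 and 47.7 RPKM in Scramble and 16.2 and 8.68 in Atf3KO, a change of -1.86 ± 0.27 (limma-trend adjusted p = 0.00206). The groups did not overlap, although the Atf3KO libraries differed from each other. Without Atf3KO replicate 2 the change was -1.44, and without replicate 1 it was -2.27. Tnfaip3 (chromosome 10, 19000910 to 19011963, minus strand, 8 exons), which encodes A20, measured 21.8 and 18.2 RPKM in Scramble and 8.88 and 8.34 in Atf3KO, a change of -1.12 ± 0.19 (limma-trend adjusted p = 0.00344). Its groups did not overlap either, which by the shares given above was common among all genes in Atf3KO.

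In Atf3KO the fold changes of all genes rose with the GC content of the model, with a Spearman's rho of 0.50 over 10618 genes that are not independent of each other. Tnip3 has the lowest GC content of the members, 40.0%, and with each library's GC trend removed its change was -1.06. Under the same correction Tnfaip3 was at -0.94 and lost its call on the fold limit alone (limma-trend adjusted p = 0.00365, with 0.000926 to 0.0253 over 20 alternatives), while Tnf was at -2.19. With a pseudocount of 5 Tnfaip3 was at -0.87 and was also not called.

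Traf1 (chromosome 2, 34943258 to 34961772, minus strand), an adaptor that binds TRAF2 and itself is a known NF-κB target, was close to absent from Atf3KO. It measured 5.60 and 3.79 RPKM in Scramble, on 25 and 15 reads, and 0 and 0.0600 in Atf3KO, on 0 and 1 read. Pooled over both libraries of a group, the read rate in Scramble was 128 times that in Atf3KO, with an exact 95% interval of 21.7 to 5172 that covers counting error only. The fitted change was -2.45 ± 0.45 (limma-trend adjusted p = 0.00465), and Traf1 was not called because it stayed below 16 RPKM.

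The other 6 members were not called in Atf3KO, with limma-trend adjusted p from 0.179 to 0.626. Tnfaip2 (chromosome 12, 111442661 to 111455018, plus strand, 12 exons) measured 105 and 84.9 RPKM in Scramble and 94.6 and 111 in Atf3KO. Tnip1 (chromosome 11, 54910787 to 54962940, minus strand, 17 exons), the ABIN1 gene, measured 57.9 and 37.1 RPKM in Scramble and 33.0 and 41.7 in Atf3KO. Its fitted difference of -0.32 (limma-trend adjusted p = 0.343) depended on the setting: it was -0.90 with the GC trend removed (limma-trend adjusted p = 0.00623, short of 2-fold) and -0.00010 without Scramble replicate 1, with an adjusted p of 0.00623 to 1.0 over 20 alternatives. Tnfaip2 went from 0.12 to -0.35 with the GC trend removed (limma-trend adjusted p = 0.0432, with 0.0432 to 1.0 over 20 alternatives). The receptor genes were at or above their Scramble means. Tnfrsf1a (chromosome 6, 125349723 to 125362483, plus strand, 10 exons) measured 49.1 and 37.6 RPKM in Scramble and 43.7 and 72.3 in Atf3KO, and Tnfrsf1b (chromosome 4, 145212368 to 145246870, minus strand, 10 exons) measured 59.3 and 54.6 in Scramble and 62.8 and 64.4 in Atf3KO. The ABIN1 and TNFR1 values overlapped between the groups. Tnfsf9 (chromosome 17, 57105385 to 57107757, plus strand, 3 exons), which encodes the ligand of the costimulatory receptor 4-1BB, measured 7.19 and 5.25 RPKM in Scramble and 7.61 and 10.8 in Atf3KO. Birc3 (chromosome 9, 7848701 to 7873170, minus strand), the cIAP2 gene, measured 23.1 and 25.0 RPKM in Scramble and 39.8 and 24.5 in Atf3KO. Counting is not stated to have used strand, so reads of Tnfsf9 and of the antisense model Gm11110, which measured at most 11.4 RPKM, cannot be told apart. Birc3 has the near copy Birc2 beside it (3.63 to 12.5 RPKM), so its reads are uncertain to the extent that shared sequence was split.

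JunDKO against Scramble asked the same for JUND. Tnfaip3 and Tnfaip2 fell, and 2 of 10 members were called lower, where 2.27% of all tested genes were. Tnfaip3 measured 5.80 and 5.19 RPKM in JunDKO, below both Scramble libraries, a change of -1.69 ± 0.19 (limma-trend adjusted p = 0.00111). Tnfaip2 measured 42.5 and 42.8 RPKM, again below both Scramble libraries, a change of -1.13 ± 0.18 (limma-trend adjusted p = 0.00617). Tnfaip2 was not called without Scramble replicate 1 (-0.98, limma-trend adjusted p = 0.0537), JunDKO replicate 1 (-1.12, limma-trend adjusted p = 0.0662) or JunDKO replicate 2 (-1.13, limma-trend adjusted p = 0.0636), and its adjusted p over 21 alternatives spanned 0.000421 to 0.0662.

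In this comparison the median change of all genes was 0.23, so the members lay lower against the rest of the transcriptome than against zero. Relative to that median, Tnfaip3 was at -1.93, Tnfaip2 at -1.36, Tnip3 at -1.21, Tnf at -1.18 and Tnfrsf1b at -1.14. With library medians made equal these 5 were called, where 3.40% of all tested genes were called lower at that scaling. With a 4-fold limit no member was called, where 0.832% of all tested genes were. As deposited, the change was -0.94 ± 0.22 for Tnf (limma-trend adjusted p = 0.0295) and for Tnfrsf1b -0.90 ± 0.21 (limma-trend adjusted p = 0.0280), both short of 2-fold. Tnfrsf1b measured 30.9 and 29.2 RPKM in JunDKO and Tnip3 20.6 and 25.3, with a fitted difference of -0.97 ± 0.27 for Tnip3 (limma-trend adjusted p = 0.0561).

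Both JunDKO libraries lay below both Scramble libraries for 8 of 10 members, where 16.4% of all tested genes showed this. The exceptions were Tnfrsf1a, at 56.5 and 45.6 RPKM in JunDKO, and Tnfsf9, at 5.26 and 7.04. Traf1 measured 0 and 0.375 RPKM on 0 and 16 reads, and its pooled read rate in Scramble was 13.7 times that in JunDKO (exact 95% interval 7.52 to 26.3, counting error only). Its fitted change was -2.26 ± 0.45 (limma-trend adjusted p = 0.0149), below the 16 RPKM needed for a call. Tnip1 at 32.3 and 24.1 RPKM and Birc3 at 17.7 and 16.5 were not called (limma-trend adjusted p = 0.116 and 0.300). The summed level of the macrophage markers was 16880 to 17442 RPKM in JunDKO and 22314 to 23851 in Scramble, with 8 of 8 present in both. Most of this sum was Lyz2, at 15109 and 14815 against 21520 and 20190 RPKM. Of the 8 markers, 3 were below both Scramble libraries (Lyz2, Adgre1 and Itgam), 4 were above both (Csf1r, Cd68, Fcgr1 and Mertk) and 1 overlapped. Of all tested genes 16.4% were below both and 45.3% above both. Neutrophil markers summed to 12.5 to 14.1 RPKM against 36.5 to 37.3, with 1 and 2 of 7 at 1 RPKM or more. S100a8 went from 34.8 and 33.2 RPKM in Scramble to 0 in both JunDKO libraries, while Csf3r was at 14.1 and 12.5 against 2.53 and 3.31. Eosinophil markers summed to 6.02 to 6.15 RPKM against 1.58 to 2.56, with 2 of 4 above both Scramble libraries, near the share of all genes. Ccr3, 1 of these, was at 4.73 and 5.87 against 1.58 and 2.32, and Epx and Prg2 were at 0 in both groups. The part of these markers in the members' values was not tested. In bulk libraries, fewer cells of a type and less RNA per cell cannot be told apart.

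JunKO against Scramble gave no called member by limma-trend or by limma-voom on recovered reads, where 0.196% of all tested genes were called, and 5 of 10 members had an unadjusted p under 0.05, where 7.88% of all tested genes did. Both JunKO libraries lay below both Scramble libraries for 7 of 10 members, where 18.1% of all tested genes showed this. Tnfaip2 at 62.8 and 55.5 RPKM had a fitted difference of -0.67 ± 0.18 (limma-trend adjusted p = 0.324), and Tnfrsf1b at 40.3 and 27.4 RPKM had -0.76 ± 0.21 (limma-trend adjusted p = 0.327). Tnfaip3, which was low in the other knockout groups, stood at 18.2 and 17.5 RPKM, and Tnip3 at 41.4 and 42.5, with fitted differences from Scramble of -0.15 and -0.12. Tnfsf9 was the one member with both libraries above both Scramble libraries, at 16.3 and 11.4 RPKM on 34 and 24 reads (1.04 ± 0.28, limma-trend adjusted p = 0.316). Traf1 measured 3.04 and 0.757 RPKM, with the lowest fitted difference of the members at -1.08 ± 0.45 (limma-trend adjusted p = 0.604), and its pooled read rate in Scramble was 2.50 times that in JunKO (exact 95% interval 1.35 to 4.88, counting error only). Tnf, given above, was also below both Scramble libraries, and Tnip1 at 33.9 and 34.2 RPKM, Tnfrsf1a at 53.6 and 38.9 and Birc3 at 25.1 and 16.9 made up the rest. Of the macrophage markers 4 of 8 were above both Scramble libraries in JunKO and none below, where 19.1% and 18.1% of all tested genes were. Sums of the 8 markers were 30717 to 31018 RPKM against 22314 to 23851. Neutrophil markers summed to 28.5 to 30.4 RPKM against 36.5 to 37.3, with 2 of 7 at 1 RPKM or more in both groups. Of these, S100a8 measured 22.7 and 24.1 RPKM against 34.8 and 33.2, and Csf3r 7.69 and 4.35 against 2.53 and 3.31. Eosinophil markers summed to 3.41 to 5.18 against 1.58 to 2.56, with Epx and Prg2 at 0 in both groups. The part of all these markers in the members' values was not tested.

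**Figure D2:**
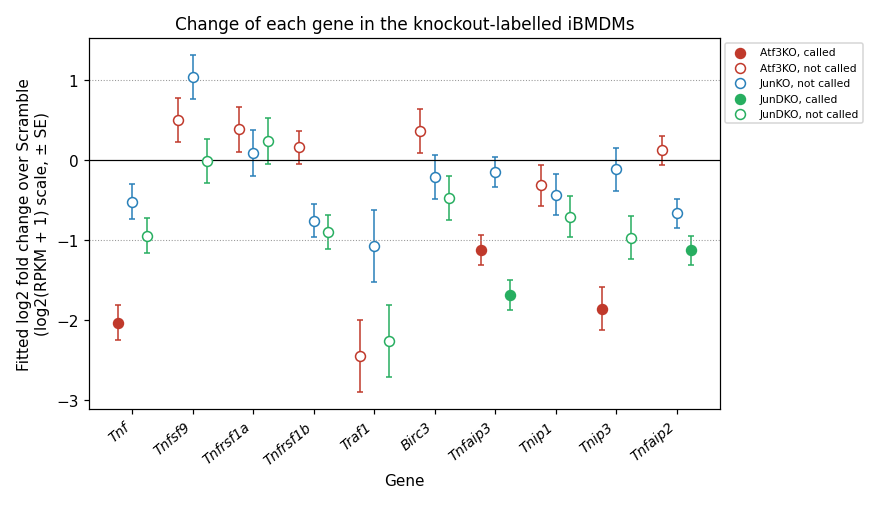
Fitted log2 fold change over Scramble of each gene (points, ± SE) in Atf3KO, JunKO and JunDKO; filled points were called and dotted lines mark 2-fold. Tnf, Tnfaip3 and Tnip3 were called in Atf3KO and Tnfaip3 and Tnfaip2 in JunDKO, while the low-level Traf1 had large changes but stayed below 16 RPKM.

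The comparisons above share their Scramble libraries, so the knockout groups were also compared with each other in the same fit. Tnf and Tnip3 separated Atf3KO from JunKO, where 2 of 10 members were called lower against 3.68% of all tested genes. Tnf was lower in Atf3KO by -1.51 ± 0.22 (limma-trend adjusted p = 0.00262) and Tnip3 by -1.74 ± 0.27 (limma-trend adjusted p = 0.00335), with the GC trend removed -1.68 and -1.01. Tnfaip3 was also lower, at -0.97 ± 0.19 (limma-trend adjusted p = 0.00723), just short of 2-fold, and was called in 5 of 20 alternatives. Tnfaip2 and Tnfrsf1b, with 1.24 ± 0.18 (limma-trend adjusted p = 0.00161) and 1.06 ± 0.21 (limma-trend adjusted p = 0.00542), were higher in Atf3KO than in JunDKO, 2 of 10 against 5.50% of all tested genes. With the GC trend removed these were 0.83 and 0.97, both short of 2-fold, and Tnfrsf1b was also at 0.97 with a pseudocount of 5. Birc3 was at 0.84 ± 0.27 in this comparison (limma-trend adjusted p = 0.0402), short of 2-fold, and was the one member called with the GC trend removed, at 1.02 (limma-trend adjusted p = 0.0104, with 0.0104 to 0.174 over 20 alternatives). Tnfaip3 alone separated JunDKO from JunKO, at -1.54 ± 0.19 (limma-trend adjusted p = 0.00237), 1 of 10 members against 1.90% of all tested genes called lower. Relative to the median change of all genes, which was -0.15 between Atf3KO and JunDKO and 0.23 between JunDKO and JunKO, Tnfaip2 was at 1.39, Tnfrsf1b at 1.20 and Tnfaip3 at -1.76. By their means, Tnf and Tnip3 were lowest in Atf3KO, and Tnfaip3, Tnfaip2 and Tnfrsf1b had lower means in JunDKO than in Atf3KO. For Tnfaip3 the last difference was 0.57 ± 0.19 (limma-trend adjusted p = 0.0433), short of 2-fold. Tnip3 was at -0.89 ± 0.27 in Atf3KO against JunDKO (limma-trend adjusted p = 0.0317), and at -0.15 with the GC trend removed.

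KLA against vehicle in TGEMs asked what 1 h of TLR4 stimulation does. Tnf, Tnfsf9, Tnfaip3, Tnfaip2 and Tnip3 rose, so that 5 of 10 members were called higher, where 1.00% of the 10357 tested genes were. The same count of 5 was called with a 4-fold limit, where 0.879% of all tested genes were. Tnf rose by 7.42 ± 0.29 (limma-trend with strain as covariate, adjusted p = 0.000144), the 5th largest fitted rise of all genes. Tnfsf9 followed at the 6th place, from 2.72 and 4.88 RPKM in the vehicle libraries to 388 in C57Bl/6EiJ and 554 and 338 in Balb/cJ, a change of 6.42 ± 0.32 (limma-trend adjusted p = 0.000196). Both ligand genes thus rose from low levels to far above every vehicle library. The median change of all genes was -0.15, and relative to it Tnf rose by 7.57 and Tnfsf9 by 6.57.

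Tnfaip3 rose from 17.8 RPKM in C57Bl/6EiJ and 36.4 in Balb/cJ to 440 and to 529 and 505, a change of 4.12 ± 0.29 (limma-trend adjusted p = 0.000737). The calls of Tnf, Tnfsf9 and Tnfaip3 held in 17 of 17 alternatives. Tnfaip2 rose from 184 and 133 RPKM to 731 in C57Bl/6EiJ and 1636 and 1102 in Balb/cJ (2.75 ± 0.37, limma-trend adjusted p = 0.0138). Tnip3 rose from 5.60 and 2.04 RPKM to 19.5 in C57Bl/6EiJ and 18.3 and 15.0 in Balb/cJ (2.15 ± 0.29, limma-trend adjusted p = 0.0129).

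These last calls rest on single libraries. Without the Balb/cJ vehicle library Tnfaip2 was at 1.99 (limma-trend adjusted p = 0.384) and Tnip3 at 1.64 (limma-trend adjusted p = 0.349). Without Balb/cJ KLA replicate 1 they were at 2.51 and 2.02 (limma-trend adjusted p = 0.0689 and 0.101). With the date in the title in place of strain, the limma-trend adjusted p was 0.105 for Tnfaip2 and 0.0980 for Tnip3. Over 17 alternatives it spanned 1.21e-06 to 0.384 for Tnfaip2 and 0.000637 to 0.349 for Tnip3.

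All 3 KLA libraries lay above both vehicle libraries for 9 of 10 members, where 5.74% of all tested genes showed this. Of the members not called, Traf1 measured 4.25 and 2.77 RPKM in the vehicle libraries of C57Bl/6EiJ and Balb/cJ and 8.77, 22.7 and 17.6 with KLA (1.80 ± 0.38, limma-trend adjusted p = 0.0902). Tnfrsf1b, the TNFR2 gene, measured 127 and 101 RPKM with vehicle and 264, 415 and 279 with KLA (1.45 ± 0.31, limma-trend adjusted p = 0.0974). Birc3 measured 8.83 and 7.01 RPKM with vehicle and 18.8, 32.2 and 25.7 with KLA (1.52 ± 0.30, limma-trend adjusted p = 0.0665). Each of these 3 was called by limma-voom on recovered reads, in which 8 of 10 members were called higher, where 1.40% of all tested genes were. Tnip1, whose 3 kappaB matches overlap and form 1 stretch of its promoter, measured 40.7 and 50.5 RPKM with vehicle and 54.7, 114 and 54.2 with KLA (0.54 ± 0.36, limma-trend adjusted p = 0.504). Tnfrsf1a was the member whose groups overlapped, at 68.2 and 29.7 RPKM with vehicle and 61.4, 65.6 and 45.7 with KLA (0.43 ± 0.33, limma-trend adjusted p = 0.567). The receptor genes thus had unlike values: the TNFR2 gene was above both vehicle libraries in each KLA library and the TNFR1 gene was not.

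Markers of other cells overlapped between vehicle and KLA as summed levels, and Balb/cJ KLA replicate 2 stood apart from the rest. Its B cell markers summed to 25.2 RPKM against 11.2 to 14.5 in the other TGEM libraries, and its mast cell markers to 18.7 against 1.78 to 7.60. Without this library 5 members were called, as with it. Over the groups, mast cell markers summed to 1.78 to 6.74 RPKM with vehicle and 2.76 to 18.7 with KLA, with 2 and 4 of 5 markers at 1 RPKM or more, and B cell markers to 11.2 to 14.5 and 11.7 to 25.2, with 5 of 5 at 1 RPKM or more in both. Mesothelial and fibroblast markers, 5 of 6 at 1 RPKM or more, summed to 56.3 to 76.6 with vehicle and 37.6 to 67.1 with KLA. Neutrophil markers summed to 27.8 to 31.4 and 15.2 to 35.5, and S100a9, Ly6g and Camp were at 0 in all TGEM libraries. Their part in the members' values was not tested.

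**Figure D3:**
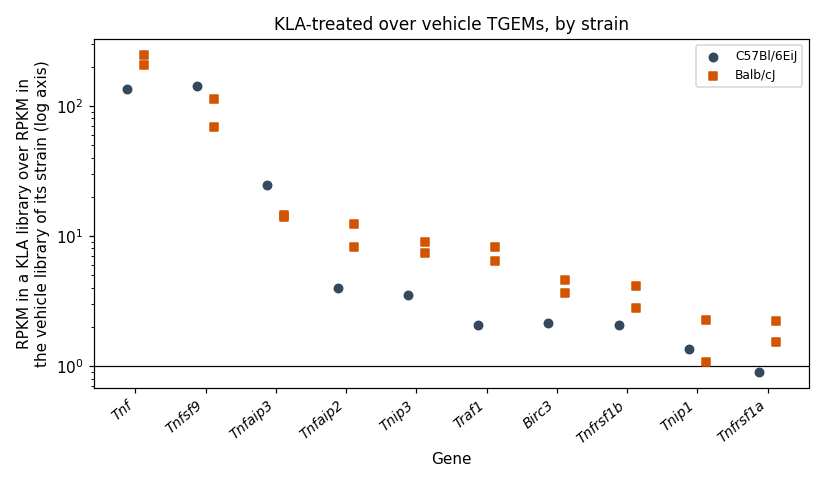
RPKM of each KLA library over the vehicle library of its strain (log axis), 1 point for C57Bl/6EiJ and 2 for Balb/cJ per gene, of which Balb/cJ replicate 2 has another title date than its vehicle library. Tnf ratios were 134 in C57Bl/6EiJ and 247 and 205 in Balb/cJ, Tnfsf9 ratios 143, 114 and 69.2, and Tnfrsf1a ratios 0.900, 2.21 and 1.54.

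By strain, no member was called by limma-trend, where 1.16% of all tested genes were, or by limma-voom, where 3.33% were. No member had an unadjusted limma-trend p under 0.05, where 21.4% of all tested genes did. By the dates in the titles the C57Bl/6EiJ libraries share a date on which no Balb/cJ library falls, so strain and date cannot be told apart. Balb/cJ KLA replicate 1 shares the date of the Balb/cJ vehicle library, and replicate 2 has a later one, so that its ratios cross dates. The KLA ratios of the strains are given side by side, and with 1 vehicle library each their difference was not tested. For Tnfaip2 the ratio was 3.98 in C57Bl/6EiJ and 12.3 and 8.26 in Balb/cJ, and for Tnip3 3.49 and 8.94 and 7.34. Tnfaip3 went the other way, at 24.7 in C57Bl/6EiJ and 14.5 and 13.9 in Balb/cJ, where its vehicle level was higher.

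In resting cells, both vehicle TGEM libraries lay above both Scramble libraries for 2 of 10 members and below for 4, where 23.7% and 44.2% of 10859 models did, so these shares are near those of all genes. Source, date and immortalisation cannot be told apart here. Tnip3 was at 5.60 and 2.04 RPKM in vehicle TGEMs and at 43.7 and 47.7 in Scramble, and even the KLA libraries stayed below Scramble. Birc3 was likewise lower in vehicle TGEMs, at 8.83 and 7.01 against 23.1 and 25.0 RPKM, as were Tnf at 20.6 and 18.1 against 23.6 and 33.7 and Tnfsf9 at 2.72 and 4.88 against 7.19 and 5.25. Tnfaip2 at 184 and 133 against 105 and 84.9 RPKM and Tnfrsf1b at 127 and 101 against 59.3 and 54.6 RPKM were above Scramble.

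Across all 13 libraries the genes whose log2(RPKM + 1) followed Tnf most closely, of 10928 with a mean of at least 1 RPKM, were Sowahc (Pearson's r = 0.988), Irf1 (0.983), an interferon regulatory factor, and Il1b (0.983), the interleukin-1β gene. These values describe points that share the KLA contrast and carry no test. Il1b measured 424, 1899 and 1719 RPKM in the KLA libraries and at most 4.45 in the others. Among the members, Tnfaip3 (r = 0.967) and Tnfsf9 (0.948) were nearest to Tnf, and Tnip3 was far (0.037). Within the 8 iBMDM libraries alone the order changed: Tnip3 had r = 0.943 with Tnf, Traf1 0.814 and Tnfaip3 0.623, while Tnfsf9 had -0.17.

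Other genes of the pathway came from a list of 34 genes of the TNF receptor complexes and the death branch, all tested. In Atf3KO 4 were called higher and 2 lower, where 838 and 501 of 10691 genes were, and the median change of the list was -0.03 against 0.05 over all genes. Ikbkg, which encodes the NF-κB kinase subunit NEMO, fell from 29.4 and 34.8 RPKM in Scramble to 9.34 and 7.28 (-1.83 ± 0.20, limma-trend adjusted p = 0.000631). Cflar, which encodes the caspase-8 inhibitor c-FLIP, fell from 22.2 and 23.6 to 10.0 and 9.09 (-1.18 ± 0.18, limma-trend adjusted p = 0.00253). Both Atf3KO libraries lay below both Scramble libraries for each of these genes, as for 33.4% of all tested genes. With the GC trend removed Cflar was at -0.71 and was no longer called.

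The called rises included Tradd, the adaptor of TNFR1, Sharpin, a subunit of the linear ubiquitin ligase, and Tnip2, which encodes ABIN2. Tradd rose from 9.78 and 9.33 RPKM to 28.4 and 41.3 (1.74 ± 0.24, limma-trend adjusted p = 0.00163), which was 0.95 and not called with the GC trend removed. Tnip2 rose from 10.9 and 10.4 to 31.8 and 32.0 (1.50 ± 0.18, limma-trend adjusted p = 0.00106). Sharpin rose from 14.1 and 8.14 to 29.2 and 40.9 (1.60 ± 0.34, limma-trend adjusted p = 0.00797), a call that leaving out Scramble replicate 2 ended (limma-trend adjusted p = 0.0655), as did leaving out Atf3KO replicate 2 (limma-trend adjusted p = 0.0570, with 0.000660 to 0.0655 over 20 alternatives). The last, Rbck1, a subunit of the same ligase, was named after its values were seen, and at 1.23 ± 0.38 (limma-trend adjusted p = 0.0318) lost its call in 10 of 20 alternatives. Of the ABIN genes in Atf3KO, Tnip3 was called lower, Tnip2 was called higher and Tnip1 was not called. With the GC trend removed Tnip2 was at 1.15 and still called, and Tnip1 at -0.90 lay close to Tnip3 at -1.06.

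In JunDKO the list had 1 gene called lower and none higher, where 243 and 288 of all genes were, with a median change of 0.16 against 0.23. The gene was again Ikbkg, at 10.2 and 10.7 RPKM (-1.53 ± 0.20, limma-trend adjusted p = 0.00217). JunKO had none called, with a median of -0.02 against 0.01 over all genes and 2 of 34 genes of the list at an unadjusted p under 0.05, where 7.88% of all tested genes were. With KLA 1 gene was called higher and none lower, where 104 and 13 of all genes were, with medians of -0.05 and -0.15. It was Cflar, from 9.43 and 14.1 RPKM with vehicle to 50.1, 92.8 and 55.5 (2.28 ± 0.30, limma-trend adjusted p = 0.0120), and this call was lost when any 1 of 4 libraries was left out (limma-trend adjusted p over 17 alternatives 5.36e-06 to 0.330, the highest without the Balb/cJ vehicle library).

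A second list held 38 other ligands and receptors of the TNF superfamily, of which 18 were tested in iBMDMs and 17 in TGEMs. In JunDKO 5 of 18 genes were lower at a limma-trend adjusted p under 0.05, where 515 of 10691 tested genes were, and 9 of 18 had an unadjusted p under 0.05, where 2939 did. With the fold and level limits 1 of 18 was called, where 4.97% of all tested genes were called either way. It was Fas, the death receptor, which fell from 20.7 and 14.7 RPKM in Scramble to 2.18 and 1.84 (-2.62 ± 0.30, limma-trend adjusted p = 0.00120). Fas was not called without Scramble replicate 1, when its Scramble mean was under 16 RPKM. With KLA 1 of 17 genes was called, where 1.13% of all tested genes were called either way. It was Cd40, a costimulatory receptor, which rose from 1.69 and 1.33 RPKM to 19.7, 39.3 and 32.5 (3.54 ± 0.30, limma-trend adjusted p = 0.00189; 0.103 without the Balb/cJ vehicle library, the highest of 17 alternatives that began at 2.91e-05). None of the list was called in Atf3KO or JunKO, with 10 and 1 of 18 genes at an unadjusted p under 0.05, where 51.8% and 7.88% of all tested genes were. The medians of this list were -0.14, -0.06, -0.30 and 0.12 in Atf3KO, JunKO, JunDKO and KLA, and those of all tested genes 0.05, 0.01, 0.23 and -0.15.

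**Figure D4:**
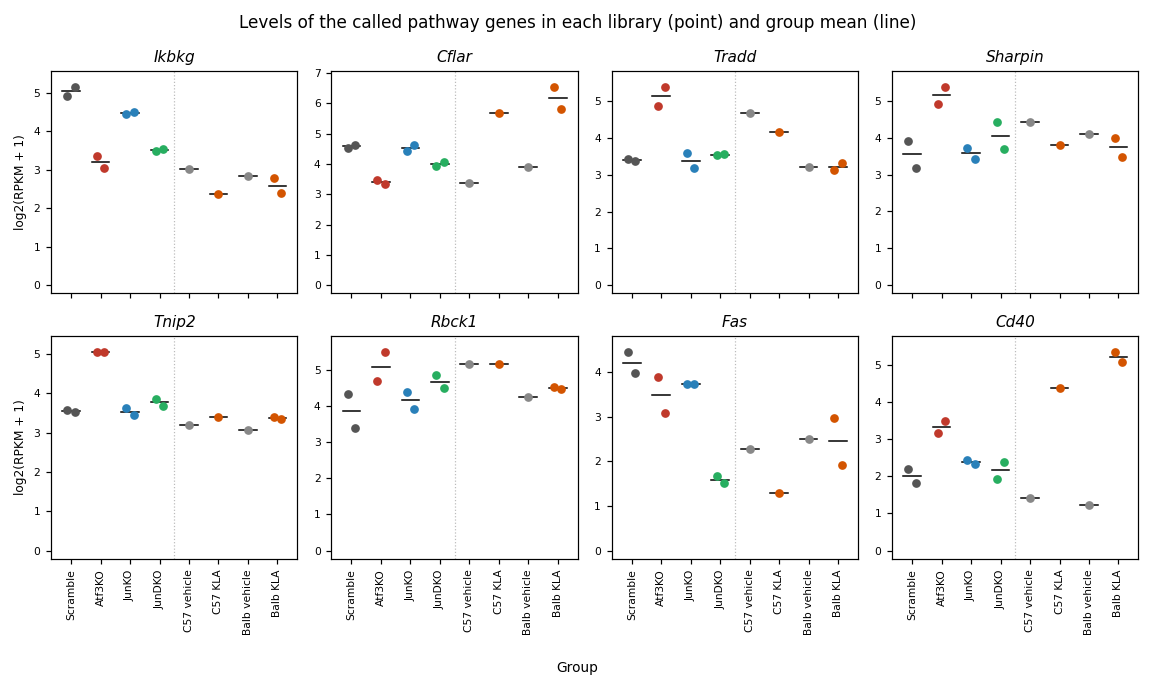
Levels of the 8 genes of both pathway lists that were called against Scramble or vehicle, as log2(RPKM + 1), with 1 point per library and a line at the mean of the log2 values. Ikbkg was at 9.34 and 7.28 RPKM in Atf3KO and 10.2 and 10.7 in JunDKO, below both Scramble libraries, and Cflar and Cd40 were highest in the KLA libraries.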

How the data were processed

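PolyA RNA-seq of 8 iBMDM and 5 TGEM libraries was used, while 4 samples of GRO-seq were not used here. The deposited values are RPKM over exons of 24453 gene models: per the labels and file headers, the authors mapped with STAR, defaults kept, onto mm10 (for Balb/cJ onto an mm10-derived genome of the strain) and counted with HOMER analyzeRepeats over exons with genes condensed. Versions and a strand option were not given in the sources used here. Such RPKM values fix the total of each library, so a few very high genes lower the rest.

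Here models averaging 1 RPKM or more in the libraries of a fit entered limma-trend as log2(RPKM + 1). The iBMDM fit had 1 coefficient per group and 4 residual degrees of freedom, and the TGEM fit treatment and strain with 2. Balb/cJ KLA replicate numbers are in accession order. Two-sided p-values received Benjamini-Hochberg adjustment across all genes tested. The call limits (adjusted p under 0.05, 2-fold, 16 RPKM) are those the study gives with its count of changed genes. Its methods state 2-fold in one place and a log2 change of 2, which is 4-fold, in another, so 4-fold was an alternative. Fold changes on this scale understate the change of low genes. In each fit with 1 library left out, a lone library was assumed to vary like the other groups.

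Depth and whole reads were recovered from the RPKM steps and exonic lengths: 100% of values up to 50 reads came out whole within 0.1 read, and limma-voom on these reads was an alternative. The GC correction subtracted a spline fit (natural, 5 degrees of freedom) in each library, with GC content for 98.9% of models. Other alternatives were the pseudocount, filters, scaling, the fold limit, covariates, the libraries fitted and a replicate block. Exact intervals and depth cover counting error only. Promoters are RefSeq's on GRCm38.p6, the build of the table's coordinates. Tnfsf9 has no entry there.

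All 10 members are named, with up to 3 called genes per direction of each pathway list and the 3 genes most correlated with Tnf. The members, lists and tests were chosen with earlier results of these data known. The replicate block with the Atf3KO numbers crossed was chosen after the values were seen. Fits used limma 3.58.1 in R 4.3.3, and tables and plots Python 3.11.15 with pandas 2.3.3, numpy 2.4.6, matplotlib 3.10.9 and scipy 1.17.1.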

Additional observations from a re-analysis of the deposited data

Results flagged for a closer look

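Differences between knockout groups, tested within the same limma-trend fit, drew a closer look at 5 values. Tnf was -1.51 and Tnip3 -1.74 on the log2(RPKM + 1) scale in Atf3KO relative to JunKO. Tnfaip3 was -1.54 in JunDKO relative to JunKO. Tnfaip2 was 1.24 and Tnfrsf1b 1.06 in Atf3KO relative to JunDKO. Each group had 2 libraries. These 5 are the values called between knockouts, so the separation of their libraries largely follows from that choice and adds no support. Groups of 2 or 3 libraries are too small to test for a library that stands apart.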

How the results depend on the processing

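The counts of members called kept within 1.5 times of the reported ones in most alternatives. The exceptions follow. Requiring 4-fold gave 1 in Atf3KO, 0 in JunDKO, and 0 in each of the 3 comparisons between knockouts. Equal library medians gave 5 in JunDKO and 2 for JunDKO against JunKO, and quantile normalization 5 in JunDKO. For Atf3KO against JunDKO a pseudocount of 5 gave 1 (Tnfaip2) and the removed GC trend 1 (Birc3, in place of Tnfaip2 and Tnfrsf1b). Leaving out 1 library gave 1 to 2 in JunDKO (1 without either of its libraries), 2 to 3 in Atf3KO against JunKO or JunDKO, 3 in Atf3KO and 3 to 6 with KLA, with 3 without the Balb/cJ vehicle library or Balb/cJ KLA replicate 1. With KLA, no filter on low values and the date as covariate each gave 3, and limma-voom and a single fit of all polyA libraries 8 each. JunKO and strain had 0 throughout.

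The sign of some small changes turned. In Atf3KO, Tnfaip2 was -0.0030 at equal medians, -0.018 after quantile normalization and -0.35 with the GC trend removed, Tnfrsf1a -0.11 with the GC trend removed and Tnfrsf1b -0.027 after quantile normalization. In JunDKO, Tnfrsf1a was -0.043 at equal medians and Tnfsf9 0.0011 with the GC trend removed and 0.083 by limma-voom. With 1 library left out, Tnfaip2 in Atf3KO spanned -0.033 to 0.27, Tnfrsf1a in JunKO -0.14 to 0.31, Birc3 in JunKO -0.49 to 0.060, Tnfsf9 in JunDKO -0.21 to 0.18 and Tnfrsf1a with KLA -0.15 to 0.86. The cause was not tested. Same-numbered iBMDM libraries deviated together among Scramble, JunKO and JunDKO (correlations 0.185 to 0.225) and oppositely in each pair with Atf3KO (-0.215 to -0.120), so the numbers were not taken as a pairing. A replicate block, plain or with the Atf3KO numbers crossed, gave the same member counts of 3, 0 and 2 against Scramble and 2, 2 and 1 between knockouts, while all genes called in JunKO went from 21 to 8 with the plain and to 42 with the crossed block. Of the 1446 single-gene alternatives, 86 lost a call and 32 gained one. Low counts limited Traf1 (0 to 25 reads in iBMDMs), and 2 libraries a group limit every spread.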

Other observations

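Some genes of the pathway lists were called between the knockout groups, in shares to be read against those of all tested genes. In Atf3KO relative to JunKO 3 of 34 genes of the receptor complex list were called higher and 2 lower, where 6.03% and 3.68% of all tested genes were, and 0 of 18 of the ligand and receptor list. In Atf3KO relative to JunDKO 3 of 34 were called higher and 1 lower, where 5.50% and 6.73% were, and 1 of 18 lower. Without the fold and level limits, 10 of these 18 genes were higher and 4 lower at a limma-trend adjusted p under 0.05. Of all 10691 tested genes 1590 were higher and 2765 lower. The median change of these 18 genes was 1.06, against -0.15 over all genes. In JunDKO relative to JunKO 0 genes of either list were called by limma-trend, where 171 of 10691 tested genes were called higher and 203 lower, with 6 of 34 and 7 of 18 at an unadjusted p under 0.05, where 2661 of all tested genes were. In Atf3KO relative to JunKO, Tradd (1.76 ± 0.24 on the log2(RPKM + 1) scale, limma-trend adjusted p = 0.00208), Sharpin (1.57 ± 0.34, 0.0102) and Tnip2 (1.51 ± 0.18, 0.00143) were called higher, and Ikbkg (-1.26 ± 0.20, 0.00328) and Cflar (-1.12 ± 0.18, 0.00397) lower, each with its limma-trend adjusted p. With the GC trend removed Ikbkg was at -0.88 and Cflar at -0.69, and neither was called. Sharpin was not called without Atf3KO replicate 2 or JunKO replicate 2 (limma-trend adjusted p = 0.0696 and 0.0794, with 0.00105 to 0.0794 over 20 alternatives).

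In Atf3KO relative to JunDKO, the genes called lower were Tbk1, a kinase of the interferon pathway, and Tnfrsf11a, the receptor RANK. Tbk1 measured 19.8 and 17.8 RPKM in Atf3KO and 39.6 and 38.8 for JunDKO (-1.02 ± 0.18, limma-trend adjusted p = 0.00361), and was at -0.87 with equal library medians, -0.70 with the GC trend removed and -0.95 without Atf3KO replicate 2, none of them called. Tnfrsf11a measured 8.85 and 16.6 RPKM in Atf3KO and 30.2 and 35.0 for JunDKO (-1.35 ± 0.33, limma-trend adjusted p = 0.0133). The call was lost without Atf3KO replicate 1 or either JunDKO library (limma-trend adjusted p = 0.0594, 0.0597 and 0.0974, with 0.00130 to 0.0974 over 20 alternatives). Tradd, Tnip2 and Sharpin were called higher, at 1.58 ± 0.24, 1.28 ± 0.18 and 1.09 ± 0.34 (limma-trend adjusted p = 0.00181, 0.00147 and 0.0326). With the GC trend removed they were at 0.90, 0.95 and 0.61, and none was called. Sharpin was also at 0.86 without Atf3KO replicate 2 and 0.72 without JunDKO replicate 2, and its limma-trend adjusted p spanned 0.00126 to 0.221 over 20 alternatives.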
